A study of Homo sapiens with 12 samples.

Results

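The EGFR family comprises receptor tyrosine kinases that sit in the cell membrane and are switched on by small growth factors. The genes followed here were 7: the receptor genes EGFR, ERBB2 and ERBB3, and the ligand genes AREG (amphiregulin), EREG (epiregulin), HBEGF (heparin-binding EGF-like growth factor) and TGFA (transforming growth factor alpha). They were taken by symbol from the merged gene count table, where all 7 were found among 40605 rows, and all 7 were among the 13047 genes that passed the filter on low counts. EGFR, ERBB2 and ERBB3 act as pairs. EGFR binds AREG, EREG, HBEGF and TGFA, ERBB2 has no known ligand and serves as a partner, and ERBB3 binds neuregulins and has little kinase activity of its own. The ligands are made as membrane proteins and are cut loose by sheddases, and active receptors feed the RAS-ERK cascade, whose activity in turn raises transcription of several of the ligand genes. In lung adenocarcinoma, the tumour type that the A549 line used here came from, EGFR is a known driver.

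The study comprised 12 RNA libraries from A549 cells, with 3 libraries in each of 4 groups. The cells carried a tetracycline-inducible DYRK1B, a protein kinase, either in the Y273F form, in which tyrosine is replaced by phenylalanine, or as wild type (WT). Per the labels, cells grew for 7 days, either in medium holding 2 µg/ml doxycycline or in plain medium, giving the groups Y273F doxycycline, Y273F control, WT doxycycline and WT control. Every group therefore carried a transgene. No A549 line without a transgene was analysed here, so an effect of doxycycline itself and one of DYRK1B cannot be told apart, and whether a line is a single clone is not stated in the labels. The libraries hold QuantSeq 3' tags, in which a read starts near the polyadenylated end of a transcript, so counts were scaled to counts-per-million values (CPM, with TMM factors) and not divided by transcript length. Nothing in the labels says that the 3 libraries of a group came from separate cultures, and p-values then measure the spread between these libraries, which may be technical.

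Library totals ranged from 2783260 to 22028600 counts, so that 3 counts were worth between 0.134 and 1.07 CPM, a limit from counting alone since amplified reads are not independent molecules. DYRK1B, the induced gene, did not separate the titled groups. It was counted at 4.65, 4.89 and 20.0 CPM in the libraries titled Y273F doxycycline, against 2.63, 12.6 and 3.22 CPM in those titled Y273F control, and at 28.6, 4.07 and 7.80 CPM in those titled WT doxycycline, against 5.80, 3.15 and 5.64 CPM in those titled WT control. A transgene without the natural 3' end of DYRK1B would add few tags to this gene and how the construct ends is not stated in the labels. By library number, the 3 highest DYRK1B values were those of libraries 4, 8 and 12. Library 10 (titled Y273F doxycycline 1), library 6 (titled WT doxycycline 3) and library 2 (titled WT control 2) lay apart on the first principal component of the 500 most variable genes, which held 69.3% of their variance: they scored 42.4 to 46.4 and the other 9 -20.1 to -4.64. The highest DYRK1B values and the libraries apart on this component thus had numbers in steps of 4 and carried titles of different groups. Libraries 1/5/9 and 3/7/11 overlapped on this component. Within libraries 4/8/12 and within 2/6/10, DYRK1B was higher under the doxycycline titles than under the control title. Within 1/5/9 and within 3/7/11 the doxycycline library lay between the control libraries. Some titles may stand on the wrong libraries, which was not tested, and every value given by titled group holds only as far as the titles are right. The 7 genes are therefore described below by the groups of the titles, which were tested, and by the library sets 2/6/10, 4/8/12, 3/7/11 and 1/5/9, whose numbers run in steps of 4. The sets are library numbers only, have no condition assigned and were not tested. Every titled group mixes libraries of different sets, so the spread behind the p-values between titled groups includes differences between sets.

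The epithelial markers KRT18, KRT8 and KRT7 were abundant in every library. The summed level of the 6 epithelial markers was 10257 to 13694 CPM in libraries 2/6/10 and 3685 to 5659 CPM in the other 9. The keratins carried this sum: CDH1 was lower in libraries 2/6/10, at 24.5 to 30.5 CPM against 44.1 to 67.0 CPM, and EPCAM had 4.65 to 6.75 CPM, against 4.79 to 32.5 CPM. Of 6 alveolar type 2 markers only ABCA3 was tested, and SFTPB had no counts. Of 8 fibroblast and smooth muscle markers, 4 were tested (COL1A1, TAGLN, ACTA2 and LUM), and their list summed to 305 to 386 CPM in libraries 2/6/10, against 31.7 to 61.5 CPM in the other 9, while DCN, PDGFRB, COL1A2 and COL3A1 stayed under 1 CPM in all 12. Immune and endothelial markers summed to 5.87 to 12.0 CPM, with CD14 the only one tested of 6. Since these are bulk samples, fewer cells of a type and less RNA per cell cannot be told apart.

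On GRCh38.p14, per RefSeq, EGFR (ENSG00000146648) spans chr7:55019017-55211628, ERBB2 (ENSG00000141736) chr17:39688094-39728658, ERBB3 (ENSG00000065361) chr12:56080108-56103505, HBEGF (ENSG00000113070) chr5:140332843-140346603 and TGFA (ENSG00000163235) chr2:70447284-70553826. EREG (ENSG00000124882, chr4:74365145-74388749) and AREG (ENSG00000109321, chr4:74445136-74455005) are neighbours on chromosome 4 with 56386 bases between them. The 250 bases before the RefSeq start of 4 genes are printed below, HBEGF and EGFR because they had the largest differences between libraries 2/6/10 and the rest, and AREG and EREG because they are neighbours. Sequences are credited to RefSeq and run 5' to 3' on the gene's own strand, and capitals mark matches on either strand to 4 motifs: the TATA box TATAAA, the cyclic AMP response element TGACGTCA, the AP-1 site TGANTCA and the GC box GGGCGG.
HBEGF, chr5:140346604-140346853, minus strand: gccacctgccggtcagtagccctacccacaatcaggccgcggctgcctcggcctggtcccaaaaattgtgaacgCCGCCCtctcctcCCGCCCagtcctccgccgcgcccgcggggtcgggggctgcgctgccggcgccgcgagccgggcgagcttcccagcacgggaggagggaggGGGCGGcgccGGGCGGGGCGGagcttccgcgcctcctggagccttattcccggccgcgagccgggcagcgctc
EGFR, chr7:55018767-55019016, plus strand: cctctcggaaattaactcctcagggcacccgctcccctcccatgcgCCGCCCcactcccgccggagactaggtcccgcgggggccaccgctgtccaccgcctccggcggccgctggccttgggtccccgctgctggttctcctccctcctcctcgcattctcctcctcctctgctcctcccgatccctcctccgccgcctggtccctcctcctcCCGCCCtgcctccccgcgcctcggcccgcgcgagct
AREG, chr4:74444886-74445135, plus strand: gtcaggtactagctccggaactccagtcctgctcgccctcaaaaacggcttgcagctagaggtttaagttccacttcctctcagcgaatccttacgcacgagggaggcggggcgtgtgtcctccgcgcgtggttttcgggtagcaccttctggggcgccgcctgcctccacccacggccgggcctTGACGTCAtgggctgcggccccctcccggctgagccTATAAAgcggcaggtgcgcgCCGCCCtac
EREG, chr4:74364895-74365144, plus strand: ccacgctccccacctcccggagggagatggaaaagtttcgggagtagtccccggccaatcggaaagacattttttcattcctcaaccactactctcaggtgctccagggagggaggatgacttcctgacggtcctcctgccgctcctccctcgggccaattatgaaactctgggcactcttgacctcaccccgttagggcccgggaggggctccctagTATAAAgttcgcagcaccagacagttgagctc

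The windows printed for HBEGF and EGFR are GC-rich, with GC boxes and no TATA match. EGFR has a second RefSeq start with another window, chr7:55109589-55109838, which is not printed. That window had a GC content of 38.8%, TATA matches at -146 and -36 and AP-1 matches at -232 and -136. The GC content was 76.4% for HBEGF, 73.6% for EGFR, 65.2% for AREG and 58% for EREG. HBEGF held 5 GC boxes, whose first bases lie at -176, -163, -73, -63 and -58 from the start, with the last pair overlapping, and EGFR held GC boxes at -204 and -36. AREG and EREG each held a TATA match, at -29 in AREG and -32 in EREG, and AREG alone of the 4 held the cyclic AMP response element, at -65, with a GC box at -9. Of 35116 promoter windows of the same length, 10.7% held TATAAA, 1.65% TGACGTCA, 6.57% TGANTCA and 42.6% GGGCGG. These are matches of letters and not sites, and 3' tags do not show which start a transcript used.

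AREG was the most abundant of the 7, with a mean of 174 CPM over the 12 libraries, followed by EGFR at 89.7, EREG at 74.5, ERBB2 at 25.8, HBEGF at 10.7, ERBB3 at 10.2 and TGFA at 6.53 CPM. The order of the lowest 3 depends on libraries 2/6/10. HBEGF was above ERBB3 in these 3 libraries and below it in the other 9, and it was below TGFA in 7 of the 12. The ranges of EGFR and EREG overlapped as well. HBEGF varied the most, 11.9-fold between its lowest and highest library, and its SD of log2 CPM of 1.30 lay at the 97.8th percentile of all genes tested. EGFR varied 3.80-fold (86.7th percentile), TGFA 3.36-fold, ERBB3 3.07-fold and EREG 2.61-fold. AREG and ERBB2 varied the least, 1.95-fold and 1.86-fold, with ERBB2 at the 37.5th percentile. The lowest counts behind a value were 13 for TGFA, 15 for ERBB3 and 23 for HBEGF, so that these genes were measured less precisely than AREG, which had at least 559 counts in every library.

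By the titles' groups, none of the 7 genes passed the test in any comparison, and neither did any other of the 13047 genes (edgeR's quasi-likelihood test, Benjamini-Hochberg adjusted p under 0.05; percent called 0 in each of the 4 comparisons). The comparisons asked what doxycycline changed in the Y273F line and in the WT line, whether these effects differed, and whether the lines differed without doxycycline. At an unadjusted p under 0.05 there were 215 genes for doxycycline in the Y273F line, 118 for doxycycline in the WT line, 160 for the difference of effects and 445 for Y273F control against WT control. The DESeq2 Wald test called 0, 0, 0 and 2 genes in these 4 comparisons and limma-voom 0 in each. The values of each gene follow, receptors first.

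EGFR had 178, 46.9 and 79.2 CPM in the libraries titled Y273F doxycycline, against 54.7, 77.1 and 58.8 CPM in those titled Y273F control. In the WT line EGFR had 81.3, 61.9 and 171 CPM with doxycycline, against 48.8, 154 and 64.9 CPM without it. In 3 of the 4 groups a single library was far above the other two, and in each case it was library 2, 6 or 10, while Y273F control, which holds none of these, was the only group with a narrow range. The log2 fold change was 0.67 (95% confidence interval -0.52 to 1.86) for doxycycline in the Y273F line, with an adjusted p from edgeR of 0.990, and 0.24 (standard error, SE, 0.54; adjusted p 0.999988) in the WT line. Without libraries 2, 6 and 10 these values were 0.02 in the Y273F line and 0.33 in the WT line.

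ERBB2, the partner without a ligand of its own, had 18.6, 27.2 and 20.7 CPM with doxycycline in the Y273F line, against 27.8, 24.6 and 27.2 CPM without it. In the WT line ERBB2 had 29.3, 28.1 and 21.2 CPM with doxycycline and 34.7, 23.4 and 26.7 CPM without it. The groups overlapped in both lines, with log2 fold changes of -0.26 (SE 0.20) in Y273F and -0.11 (SE 0.19) in WT cells. ERBB2 is the member for which strand matters: MIEN1 on the opposite strand covers its 3' end, and without strand its counts came to 22.9% of those on its own strand, on which its values here rest. ERBB3, the neuregulin receptor, had 5.37, 11.1 and 10.8 CPM with doxycycline in the Y273F line, against 8.78, 8.30 and 13.5 CPM without it, and 8.27, 14.2 and 6.41 CPM in WT doxycycline, against 16.5, 5.85 and 13.4 CPM in WT control. Its lowest library in each of 3 groups was number 2, 6 or 10. The log2 fold changes of ERBB3 were -0.16 (SE 0.43) in Y273F and -0.32 (SE 0.42) in WT cells. A second annotated gene, AC034102.2, overlaps the 3' end of ERBB3 on the same strand, so tags of the pair may not be separable.

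AREG was the only one of the 7 that had any comparison of titled groups without overlap. It had 198, 147 and 209 CPM in WT doxycycline, against 136, 135 and 126 CPM in WT control, so that all 3 libraries with doxycycline were above all 3 without it. The group means were 185 ± 33.5 and 133 ± 5.84 CPM (SD, n = 3 each), and the log2 fold change was 0.48 (95% confidence interval -0.03 to 0.99; adjusted p from edgeR 0.999988). Of all genes tested, 1.56% were higher in this way, 1.63% lower and 3.20% either, while 1 of the 7 members was higher and 0 were lower. In the Y273F line AREG had 200, 136 and 246 CPM with doxycycline and 148, 237 and 166 CPM without it, and the log2 fold change was 0.08 (SE 0.23). There the groups of all 7 members overlapped, where 5.46% of all genes were higher without overlap, 5.46% lower and 10.9% either. The 3 libraries titled Y273F control were also above all 3 titled WT control, with a log2 fold change of 0.47 (SE 0.23; adjusted p from edgeR 0.991); 5.62% of all genes were higher in this way, 5.24% lower and 10.9% either. Both statements on AREG share the 3 WT control libraries. WT control is the only group that holds none of libraries 4, 8 and 12, which had 198, 237 and 246 CPM of AREG. WT doxycycline holds library 4 and Y273F control holds library 8. The remaining libraries of these groups, at 147, 209, 148 and 166 CPM, were also above WT control. The part of the library sets in these separations was not tested. Without libraries 2, 6 and 10 the log2 fold changes were 0.39 for doxycycline in WT cells, 0.07 in Y273F cells and 0.48 between the control groups.

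EREG, encoded next to AREG, had 102, 55.9 and 91.5 CPM with doxycycline in the Y273F line, against 61.2, 116 and 62.2 CPM without it. In the WT line EREG had 68.4, 51.8 and 116 CPM with doxycycline, against 47.7, 77.4 and 44.6 CPM without it. The groups overlapped in both lines, and the log2 fold changes were 0.07 (SE 0.36) in Y273F and 0.48 (SE 0.36) in WT cells. They were, without libraries 2, 6 and 10, -0.08 in Y273F and 0.38 in WT cells, and leaving out each library in turn moved the WT value between 0.096 and 0.77. Libraries 2, 6 and 10 were the highest of their groups, and library 8, titled Y273F control 2, had the highest EREG value of all.

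HBEGF had the widest spread of the 7 genes in fold terms. Y273F doxycycline libraries had 27.9, 4.69 and 5.98 CPM of HBEGF, against 4.51, 7.64 and 2.82 CPM in Y273F control. WT doxycycline libraries had 6.53, 2.61 and 31.1 CPM of HBEGF, against 3.07, 27.9 and 3.16 CPM in WT control. Each of the 3 values of 27.9 CPM or more came from library 2, 6 or 10, and the remaining 9 values lay between 2.61 and 7.64 CPM. The log2 fold change in the Y273F line was 1.39 with a 95% confidence interval from -1.08 to 3.86, and in the WT line 0.29 with an interval from -2.01 to 2.58, so that these groups of 3 could not show a change of a few fold in either direction. Without libraries 2, 6 and 10 the values were 0.24 in Y273F and 0.52 in WT cells.

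TGFA, the member with the lowest mean, had 11.5, 5.47 and 4.24 CPM with doxycycline in the Y273F line, against 5.39, 4.32 and 5.81 CPM without it. In the WT line TGFA had 7.55, 6.05 and 11.3 CPM with doxycycline, against 3.41, 9.45 and 3.95 CPM without it. Again libraries 2, 6 and 10 were the highest of their groups. The log2 fold changes of TGFA were 0.37 (SE 0.47) in Y273F and 0.60 (SE 0.46) in WT cells. They were -0.15 in Y273F and 0.88 in WT cells when libraries 2, 6 and 10 were left out.

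**Figure D1:**
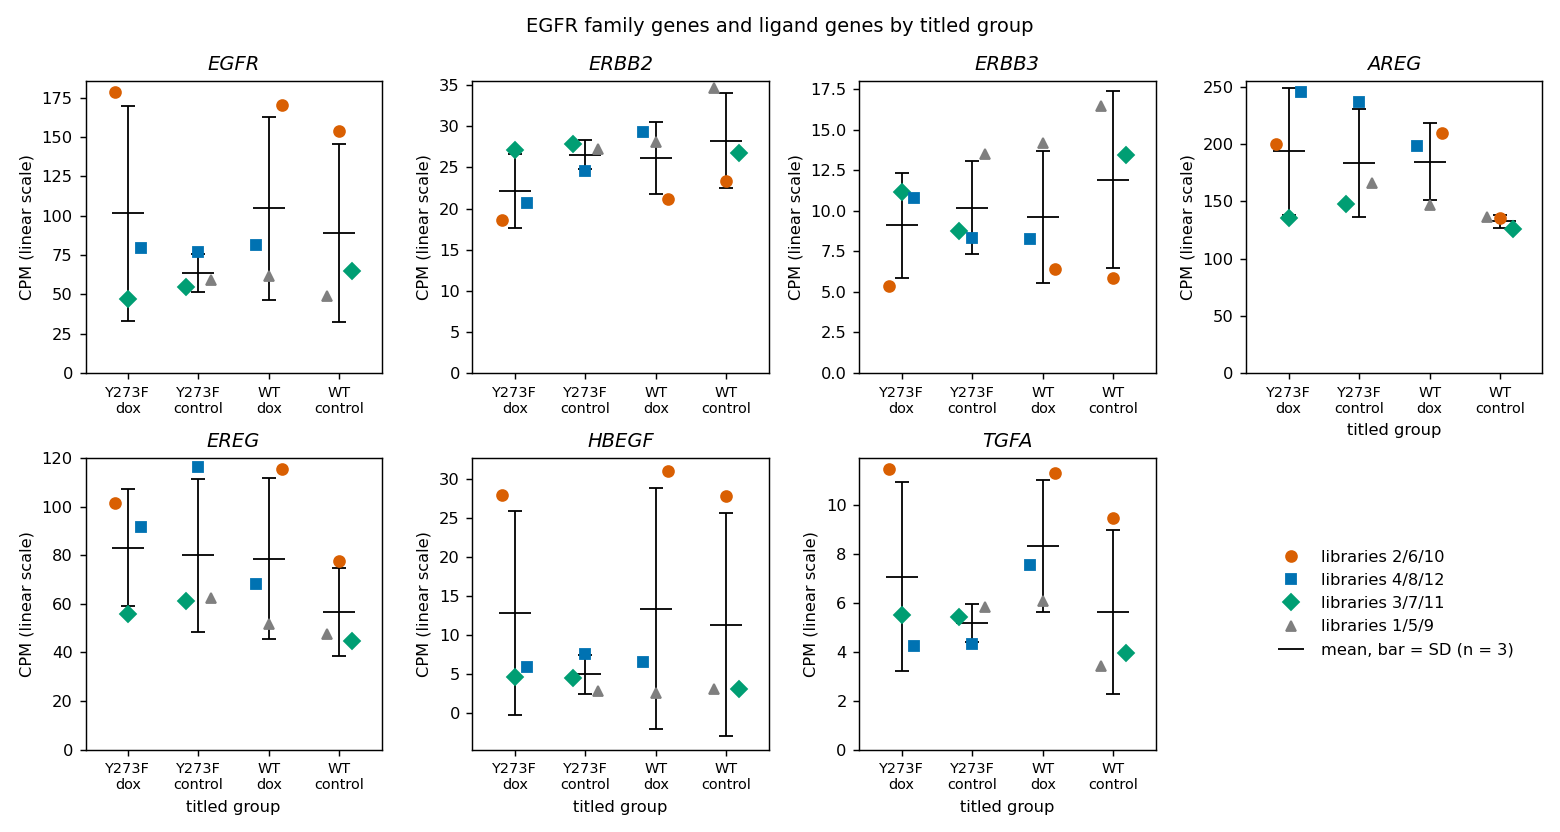
Level of each of the 7 genes in CPM (linear scale) by titled group, with colours and shapes for library sets, the mean as a horizontal line and the SD as a bar (n = 3). EGFR, HBEGF and TGFA are highest and ERBB3 lowest in libraries 2, 6 and 10 wherever a group holds one of them, and only AREG separates WT doxycycline from WT control.

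The effect of doxycycline was not shown to differ between the lines for any member. The difference of the log2 effects, Y273F minus WT, was 0.43 (SE 0.76) for EGFR, -0.15 (SE 0.28) for ERBB2, 0.16 (SE 0.59) for ERBB3, -0.40 (SE 0.33) for AREG, -0.41 (SE 0.51) for EREG, 1.10 (SE 1.53) for HBEGF and -0.23 (SE 0.65) for TGFA, each with an adjusted p from edgeR of 0.999911. Without libraries 2, 6 and 10 the difference was -0.31 for EGFR, -0.28 for HBEGF and -1.02 for TGFA. Between the control groups, Y273F minus WT, the log2 fold change was -0.49 (SE 0.54) for EGFR, -0.09 (SE 0.19) for ERBB2, -0.22 (SE 0.42) for ERBB3, 0.49 (SE 0.36) for EREG, -1.23 (SE 1.11) for HBEGF and -0.05 (SE 0.46) for TGFA. WT control holds library 2, and Y273F control holds none of libraries 2, 6 and 10. Without these libraries the values were 0.14 for EGFR, 0.55 for HBEGF and 0.53 for TGFA, the opposite direction. These 4 comparisons share libraries.

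**Figure D2:**
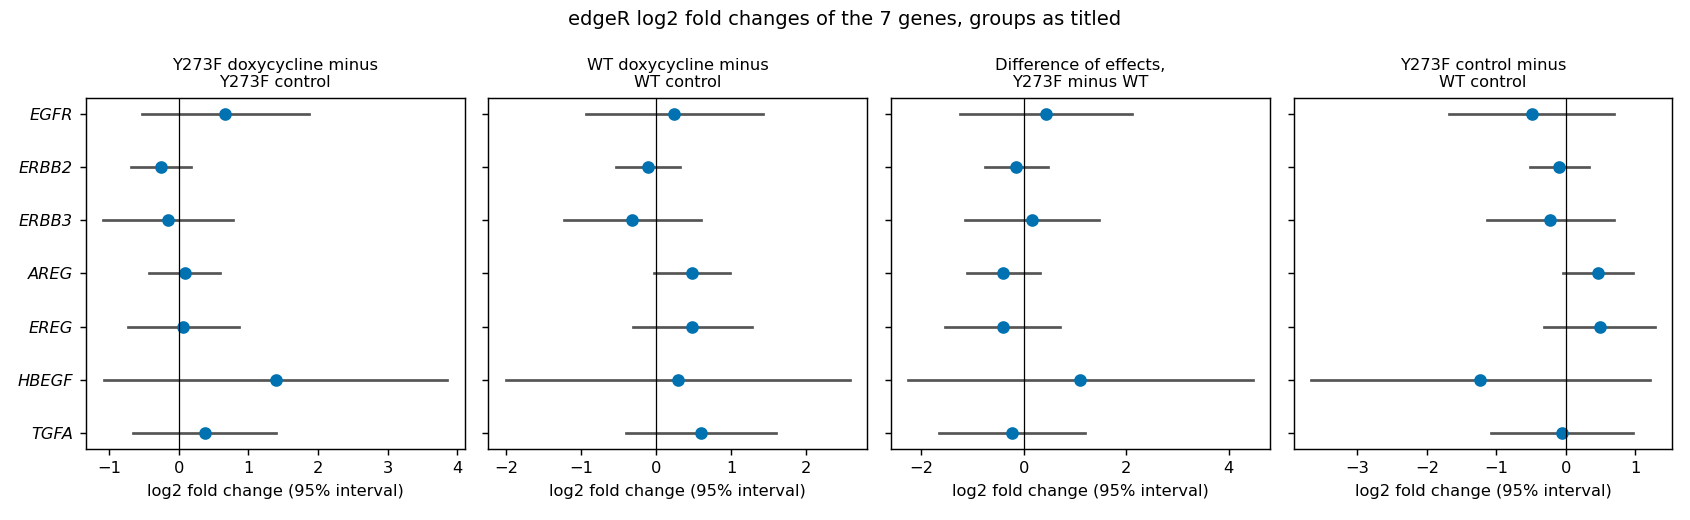
Log2 fold change of each gene (points) with its 95% confidence interval (lines) from edgeR in the 4 comparisons of titled groups, each panel with its own horizontal scale. Every interval includes 0, and in each panel those of ERBB2 and AREG are the narrowest and that of HBEGF is the widest, from -1.08 to 3.86 for doxycycline in the Y273F line and from -2.25 to 4.46 for the difference of effects.

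By library set, EGFR, HBEGF and TGFA were higher in libraries 2/6/10 than in all other 9 libraries, and ERBB3 was lower. Of all genes tested, 35.1% did not overlap between libraries 2/6/10 and the other 9 (18.8% higher and 16.3% lower), against 4 of the 7 members. EGFR had 154, 171 and 178 CPM in libraries 2, 6 and 10 and 46.9 to 81.3 CPM in the other 9, a 2.76-fold difference of medians. HBEGF had 27.9, 31.1 and 27.9 CPM there and 2.61 to 7.64 CPM in the other 9, a 6.18-fold difference of medians. These 3 libraries carry the titles of 3 different groups.

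TGFA had 9.45, 11.3 and 11.5 CPM in libraries 2, 6 and 10 and 3.41 to 7.55 CPM in the other 9, a 2.09-fold difference of medians. ERBB3 had 5.85, 6.41 and 5.37 CPM in libraries 2, 6 and 10, against 8.27 to 16.5 CPM in the other 9, and its median was 1.90-fold lower. ERBB2 at 18.6 to 23.4 CPM overlapped with the other 9, at 20.6 to 34.7 CPM. AREG (135 to 209 CPM, against 126 to 246 CPM) and EREG (77.4 to 116 CPM, against 44.6 to 116 CPM) overlapped too. For both genes libraries 4/8/12 reached levels as high, and for AREG library 2 lay within the range of libraries 3/7/11.

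Libraries 4/8/12, which had the highest DYRK1B values in CPM, were higher than libraries 3/7/11 in AREG, EREG, EGFR and HBEGF. Of these genes, EREG, EGFR and HBEGF were also higher without overlap in libraries 2/6/10 against 1/5/9, and AREG was not. AREG had 198, 237 and 246 CPM in libraries 4, 8 and 12, against 126, 148 and 136 CPM in libraries 3, 7 and 11, a 1.75-fold difference of medians. EREG had 68.4, 116 and 91.5 CPM there, against 44.6, 61.2 and 55.9 CPM, a 1.64-fold difference. EGFR had 81.3, 77.1 and 79.2 CPM, against 64.9, 54.7 and 46.9 CPM, a 1.45-fold difference, and HBEGF was 1.45-fold higher as well. In all, 4 of the 7 members were higher without overlap and 0 were lower, where 8.98% of all genes tested were higher, 8.50% lower and 17.5% either. TGFA, ERBB2 and ERBB3 overlapped between these sets.

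Against libraries 1/5/9, libraries 2/6/10 were higher without overlap for EGFR (2.90-fold in medians), HBEGF (9.91-fold), EREG (1.96-fold) and TGFA (1.94-fold) and lower for ERBB3 (2.43-fold) and ERBB2 (1.33-fold). This is 6 of 7 members, where 27.7% of all genes were higher, 27.6% lower and 55.3% either. Against libraries 4/8/12, libraries 2/6/10 were higher for EGFR (2.15-fold), HBEGF (4.28-fold) and TGFA (2.61-fold) and lower for ERBB3 (1.42-fold), where 25.0% of all genes were higher, 23.1% lower and 48.1% either. Of the 4 pairs of sets compared, 3/7/11 against 1/5/9 had the fewest members without overlap, 2 of 7: HBEGF was higher and ERBB3 lower in 3/7/11 without overlap, where 9.67% of all genes were higher, 9.98% lower and 19.7% either, and with CPM by library totals the difference of HBEGF overlapped.

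**Figure D3:**
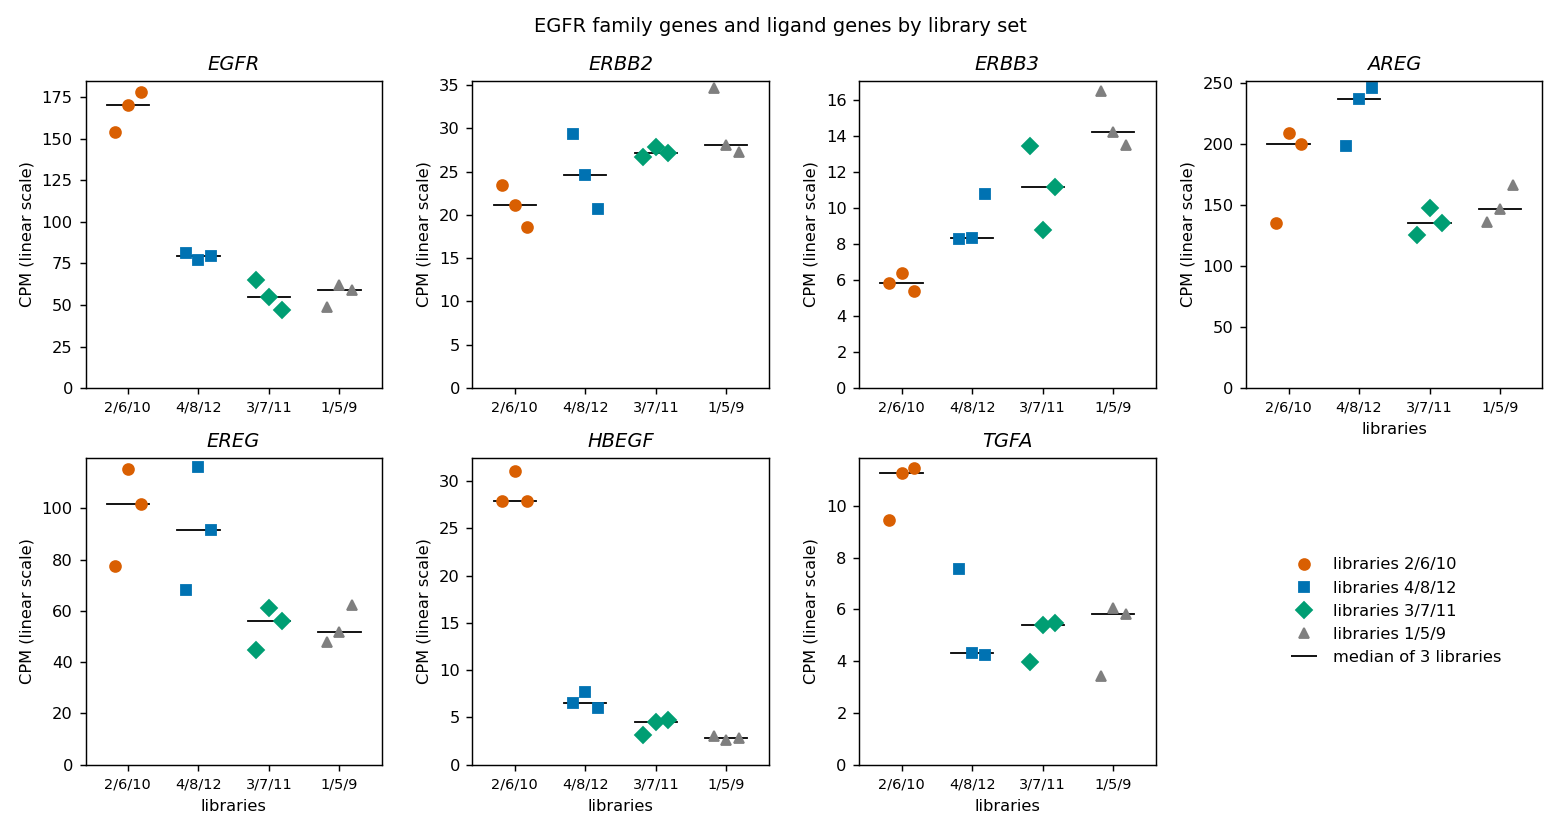
Level of each of the 7 genes in CPM (linear scale) by library set, with a point per library and the median of 3 libraries as a line. Libraries 2/6/10 are apart for EGFR, HBEGF and TGFA on the high side and for ERBB3 on the low side, while AREG and EREG are high in both 2/6/10 and 4/8/12.

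The make-up of the receptor and ligand transcripts restates the same CPM. Libraries 2/6/10 were apart in the shares of EGFR, AREG and HBEGF. The EGFR shares of libraries 3/7/11 and 1/5/9 overlapped, as did the AREG shares of all sets other than 2/6/10. EGFR made up 84.0%, 86.1% and 88.1% of the summed CPM of the 3 receptor genes in libraries 2, 6 and 10, 68.4% to 71.6% in libraries 4/8/12, 55.0% to 61.8% in libraries 3/7/11 and 48.8% to 59.4% in libraries 1/5/9. The ratio of EGFR to ERBB3 was 26.3 to 33.2 in libraries 2/6/10 and 2.96 to 9.82 in the other 9. The summed CPM of the receptor genes was 183 to 202 in libraries 2/6/10 and 85.2 to 119 in the other 9.

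Among the ligand genes AREG made up 54.1% to 58.7% of the summed CPM in libraries 2/6/10 and 64.9% to 71.6% in the other 9. HBEGF made up 8.18% to 11.2% there and 1.19% to 2.33% in the other 9. The ratio of AREG to EREG stayed between 1.75 and 2.90 over all 12 libraries and was lowest, at 1.75 to 1.97, in libraries 2/6/10. The summed level of the ligand genes overlapped between libraries 2/6/10 and 4/8/12: its median was 341 CPM in libraries 2/6/10, 347 CPM in libraries 4/8/12, 202 CPM in libraries 3/7/11 and 207 CPM in libraries 1/5/9.

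**Figure D4:**
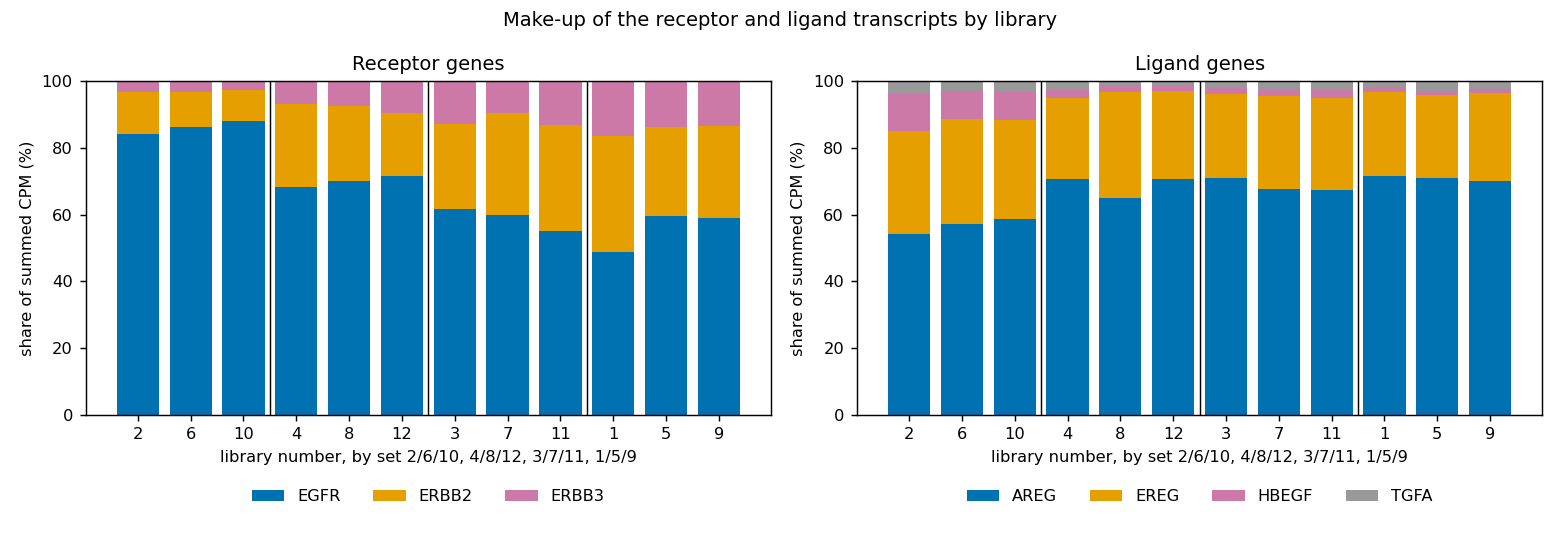
Share (%) of EGFR, ERBB2 and ERBB3 in the summed CPM of the receptor genes (left) and of AREG, EREG, HBEGF and TGFA in that of the ligand genes (right), with a bar per library ordered by library set. EGFR takes 84.0% to 88.1% of the receptor sum in libraries 2, 6 and 10 and at most 71.6% elsewhere, and HBEGF takes 8.18% to 11.2% of the ligand sum there and at most 2.33% elsewhere.

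Within a library set, libraries of different titles can be set side by side, 1 against 1 and with no replicate. For doxycycline in the Y273F line, the log2 ratio of EGFR was -0.22 (library 11 over 7) and 0.04 (12 over 8), and in the WT line 0.34 (5 over 1) and 0.15 (6 over 2). HBEGF gave 0.06 and -0.35 in the Y273F line and -0.23 and 0.15 in the WT line, all small beside its difference between libraries 2/6/10 and the other sets. Between the control groups inside a set, Y273F over WT, HBEGF gave 0.52 (7 over 3) and -0.12 (9 over 1), of which the first was close to the log2 ratio of medians between libraries 4/8/12 and 3/7/11, 0.53. With doxycycline over control again, AREG gave -0.12 and 0.05 in the Y273F line and 0.10 and 0.63 in the WT line. EREG gave -0.13 and -0.35 in the Y273F line and 0.12 and 0.58 in the WT line, and TGFA 0.02 and -0.03 in the Y273F line and 0.83 and 0.26 in the WT line. ERBB3 gave 0.34 and 0.37 in the Y273F line and -0.22 and 0.13 in the WT line, and ERBB2 -0.035 and -0.25 in the Y273F line and -0.30 and -0.14 in the WT line.

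Of the other receptors and ligands of the family, a list of 8 genes, 5 were tested (EGF, BTC, NRG1, NRG2 and NRG4); ERBB4 reached at most 0.125 CPM and EPGN and NRG3 had no counts. None of the 5 was called between titled groups; their median log2 fold change was 0.05 for doxycycline in the Y273F line and -0.03 in the WT line, beside 0.01 and -0.002 over all genes. By library set, 3 of the 5 were higher in libraries 2/6/10 than in the other 9 and 1 was lower, where 18.8% of all genes tested were higher, 16.3% lower and 35.1% either. NRG1, a neuregulin that binds ERBB3 and ERBB4, had 267 to 287 CPM in libraries 2/6/10, against 88.1 to 132 CPM, above every ligand gene among the 7 members there. BTC (betacellulin, a ligand of EGFR and ERBB4) had 8.95 to 9.33 CPM, against 2.54 to 5.98 CPM. EGF, named after its values were seen, had 2.48 to 2.92 CPM, against 0.332 to 1.38 CPM. NRG2, another neuregulin, was the lower one, at 0.358 to 2.25 CPM against 3.75 to 6.54 CPM, and NRG4 overlapped.

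Further lists of the pathway were likewise without a call between titled groups: 0 of 9 sheddases and their partners, 0 of 16 adaptors and members of the RAS-ERK cascade, 0 of 18 tested negative regulators (of 19) and 0 of 13 genes known to be induced by ERK signalling. For doxycycline in the Y273F line their median log2 fold changes were 0.21, 0.02, 0.06 and 0.07, and in the WT line 0.01, -0.02, 0.08 and -0.03, in the same order. Among the sheddase genes, ADAM17, which releases AREG, HBEGF and TGFA, had 135 to 147 CPM in libraries 2/6/10 and 124 to 160 CPM in the other 9, and ADAM10 112 to 123 CPM and 102 to 116 CPM. FRMD8, a partner of the iRhoms that carry ADAM17 to the surface, had 53.1 to 77.7 CPM, against 31.7 to 46.6 CPM, and the iRhom gene RHBDF2, named after its values were seen, 56.2 to 60.7 CPM, against 27.2 to 38.9 CPM. These were the 2 of 9 in the list without overlap, both higher, where 18.8% of all genes were higher and 35.1% either.

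In the RAS-ERK list 4 of 16 genes were higher in libraries 2/6/10 than in the other 9 and 2 were lower, a share without overlap near the 35.1% of all genes, and the median log2 ratio was 0.06 beside -0.01 over all genes. The adaptors GRB2 (201 to 208 CPM, against 153 to 182 CPM) and SHC1 (193 to 234 CPM, against 127 to 166 CPM) were among the higher ones. Among the negative regulators 2 of 18 were higher and 3 lower, where 18.8% of all genes were higher and 16.3% lower, and the median log2 ratio was -0.14. PTPN1, a tyrosine phosphatase that acts on EGFR, had 192 to 226 CPM, against 119 to 153 CPM. RNF41, a ubiquitin ligase that lowers ERBB3 protein, had 34.0 to 41.9 CPM, against 20.9 to 31.7 CPM. DUSP4, an ERK phosphatase, was lower, at 58.2 to 60.5 CPM against 65.7 to 103 CPM, and so were DUSP6, of the same kind, at 6.41 to 8.95 CPM against 22.4 to 43.6 CPM, and SPRY1, at 0.836 to 1.80 CPM against 4.14 to 5.68 CPM, the last 2 named after their values were seen.

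Genes known to be induced by ERK signalling did not move in 1 direction by library set: 5 of 13 were higher in libraries 2/6/10 than in the other 9, 2 were lower, where 18.8% of all genes were higher and 16.3% lower, and the median log2 ratio was -0.22. CCND1 (cyclin D1) had 241 to 260 CPM, against 148 to 212 CPM, and PHLDA1 had 119 to 137 CPM, against 152 to 278 CPM, while IER3 and MCL1 overlapped. The other members without overlap, named after their values were seen, were JUN at 128 to 141 CPM against 13.5 to 47.8 CPM, SPHK1 at 15.0 to 18.2 CPM against 2.27 to 4.96 CPM, FOSL1 at 26.3 to 30.2 CPM against 6.66 to 19.4 CPM, ETV5 at 44.7 to 45.1 CPM against 29.7 to 42.2 CPM, and IER2, which was lower, at 20.5 to 27.2 CPM against 27.5 to 37.2 CPM.

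The genes most like each member across the 12 libraries were taken as those with the smallest root mean square difference of log2 CPM, each gene centred on its mean, among 10342 genes of at least 5 CPM. This was done for members with an SD of at least 0.4, which left out AREG and ERBB2. For EGFR they were EPB41L2 (0.11), CTPS1 (0.13) and SH3KBP1 (0.13), for HBEGF SAMD9 (0.18), SAMD9L (0.20) and PALM2AKAP2 (0.22), and for TGFA INPP1 (0.23), CNNM4 (0.23) and NAGK (0.24). For EREG they were EEA1 (0.17), ATP10A (0.20) and MMP7 (0.21), and for ERBB3 CBX2 (0.16), GALK2 (0.18) and AKR1C1 (0.18). EPB41L2, for example, had 228 to 276 CPM in libraries 2/6/10 and 76.4 to 135 CPM in the other 9, and SAMD9 54.0 to 69.6 CPM and 6.36 to 15.9 CPM. These likenesses are descriptions over 12 libraries that share their sets, and every gene that differs between sets in a like proportion scores well.

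Some fibroblast and smooth muscle markers were higher in the same libraries as EGFR, HBEGF and TGFA, and so were the epithelial keratins KRT7, KRT8, KRT18 and KRT19. CD14, the only immune or endothelial marker tested, overlapped between libraries 2/6/10 and the other 9. In libraries 2/6/10 COL1A1 had 136 to 197 CPM, against 13.3 to 30.8 CPM in the other 9, and TAGLN 121 to 137 CPM, against 1.15 to 11.0 CPM, while CDH1 (E-cadherin) was lower, as given above. COL1A2, COL3A1, PDGFRB and DCN were at or near 0 in the same libraries. Their part in the values of the 7 genes was not tested.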

How the data were processed

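Per the labels' protocols, column-purified RNA was turned into QuantSeq FWD V2 libraries, and per the submitters' processing notes STAR aligned the reads to GRCh38.p14. No label states the STAR version, the annotation release or how molecular identifiers were handled. The values used are the read counts per gene that the authors deposited in a merged table (40605 rows, 75 repeated symbols kept as separate rows), beside counts per library without strand and for each strand. The merged counts of the 7 genes equalled the transcript-strand counts in all 12 libraries. Reads without a gene, 35.5% to 43.2% of a library, stayed out of totals, and 7.25% to 8.07% of stranded counts fell on the opposite strand.

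Groups came from the sample titles. Counts were filtered with filterByExpr (minimum count 10), which left 13047 genes, and scaled with TMM factors. The quasi-likelihood test of edgeR 4.0.16 under R 4.3.3 was run on all 12 libraries at once, with 1 mean per group and no covariate. The threshold was an adjusted p (Benjamini-Hochberg, over all genes tested) under 0.05, and intervals are at 95%. The procedure was tested on simulated data with changes in WT doxycycline only. The simulated libraries had no library sets, so this could not show how the tests perform where sets differ. Groups or library sets are said not to overlap where every CPM of one lay above every CPM of the other. The named genes are the 7 members and, per list, at most 4 genes past the threshold or else those with the highest mean CPM. Others of the pathway lists are said to have been named after their values were seen, or were not tested. Further cell type markers, such as EPCAM and KRT19, are named without this mark. Members, lists, library sets and alternatives were chosen with earlier results of these data known. Alternatives were DESeq2 1.42.0 size factors and Wald test, limma-voom (limma 3.58.1), no filter, a replicate term, a library set term, counts without strand, CPM by library totals, and leaving out libraries. Of 18 same-numbered pairs of different groups, 3 correlated over 0.1 in their deviations from the group means (median -0.153). Of 12 pairs from the same library set 11 did (median 0.374). No same-numbered pair shares a library set, so this could not show whether the replicate numbers of the titles pair the libraries.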

Additional observations from a re-analysis of the deposited data

How the results depend on the processing

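Under every alternative run, 0 of the 7 genes passed the test in the 4 comparisons of titled groups. The smallest adjusted p of a member under any alternative was 0.117 (EREG, Y273F control against WT control, with the library set term). All 28 log2 fold changes (7 genes in 4 comparisons) kept their direction with DESeq2 size factors, with no filter, with the DESeq2 Wald test and with the replicate block. With limma-voom 27 did, with counts without strand 26, without libraries 2, 6 and 10 20, and with the library set term 17. The count of genes past the threshold was 0 for each comparison, except for 2 with the DESeq2 Wald test in Y273F control against WT control and except when libraries were left out in turn, where it ranged from 0 to 1 for doxycycline in the Y273F line, for the difference of effects and for the control groups, and stayed at 0 for doxycycline in the WT line. It was 1 for doxycycline in the Y273F line without Y273F doxycycline 2, Y273F doxycycline 3 or Y273F control 2, for the difference without Y273F doxycycline 2 or 3, and for the control groups without Y273F control 2.

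With the replicate number as a block the counts past the threshold were 0, and AREG stood at 0.47 and HBEGF at 0.57 for doxycycline in the WT line. It changed no call. Whether the numbers pair the libraries was not shown, so this fit is not read as a paired test.

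Reversed directions were as follows, on the log2 scale; the cause was not tested. With the library set term, doxycycline in the Y273F line gave -0.041 for EGFR, 0.29 for ERBB3, -0.021 for AREG, -0.23 for EREG, -0.16 for HBEGF and -0.12 for TGFA. The difference of effects gave -0.15 for EGFR and -0.28 for HBEGF. Y273F control against WT control gave 0.035 for EGFR, 0.23 for HBEGF and 0.46 for TGFA. Without libraries 2, 6 and 10, doxycycline in the Y273F line gave 0.042 for ERBB3, -0.077 for EREG and -0.15 for TGFA, the difference -0.31 for EGFR and -0.28 for HBEGF, and the control groups 0.14 for EGFR, 0.55 for HBEGF and 0.53 for TGFA. Limma-voom gave 0.29 for TGFA between the control groups. Counts without strand, which lose most ERBB2 reads, gave 0.36 for ERBB2 with doxycycline in the WT line and 0.46 between the control groups.

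Leaving out each library in turn kept the direction in 305 of 336 values. The ranges that follow cover all fits with a library left out, for genes whose direction reversed in any fit of that comparison. For doxycycline in the Y273F line the values ranged from -0.32 to 0.11 for ERBB3 and -0.13 to 0.30 for AREG. There the values ranged from -0.10 to 0.42 for EREG and -0.13 to 0.66 for TGFA. For doxycycline in the WT line they ranged from -0.30 to 0.88 for EGFR, -0.23 to 0.060 for ERBB2 and -1.27 to 2.09 for HBEGF. For the difference they ranged from -0.23 to 0.96 for EGFR, -0.14 to 0.56 for ERBB3, -0.70 to 2.64 for HBEGF and -0.81 to 0.060 for TGFA. Between the control groups they ranged from -0.78 to 0.15 for EGFR, -0.20 to 0.084 for ERBB2, -0.52 to 0.080 for ERBB3, -1.70 to 0.57 for HBEGF and -0.32 to 0.52 for TGFA. AREG with doxycycline in the WT line stayed between 0.38 and 0.62.

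With CPM by library totals, libraries 3/7/11 against 1/5/9 had 1 member without overlap in place of 2. Depth limits TGFA, ERBB3 and HBEGF most, with as few as 13, 15 and 23 counts.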
